A study of Mus musculus with 12 samples.

Results

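The growth hormone, Stat5 and Igf1 axis was described through 10 genes of the 14188 genes in the protein-coding expression table. These were Ghr, Stat5b, Socs2, Cish, Igf1, Igfals, Igfbp2, Igfbp4, Mup3 and Mup20, set by name and picked with earlier results of these data known, and together they had 29 listed transcripts. The expression of a gene was the sum of the FPKM of its listed transcripts, a unit in which sequenced fragments are scaled to transcript length and library size. Liver RNA was sequenced from 12 male mice with CCl4-induced hepatic fibrosis, of which 6 were in the PZH group against 6 in the control group. The strain is C57BL/8 in the labels and C57BL/6J in the methods of the study. All 12 mice were 6 weeks old at the start and received 10 µl/g of a CCl4 and oil mixture by intraperitoneal injection 2 times a week for 8 weeks. The PZH group also received PZH (Pien Tze Huang, a herbal remedy of Chinese medicine) at 0.25 mg/g by gavage 1 time a day, and the control group received water by the same route. No liver without CCl4 was in the table, so the effect of the injury itself was not measured.

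In hepatocytes, growth hormone from the pituitary binds its receptor Ghr, which activates the kinase Jak2 and the transcription factor Stat5b. Stat5b then drives Igf1, Igfals and the feedback inhibitors Socs2 and Cish, and most circulating Igf1 is made in the liver and carried by binding proteins. The pulsed secretion of growth hormone in males also maintains male-biased liver genes, among them several major urinary protein (Mup) genes, and injury, inflammation and fasting are known to make the liver less responsive to growth hormone.

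The receptor Ghr was expressed at about 2-fold higher levels in the PZH group, and Mup20 and Igfbp2 were also higher, while no difference was detected for Igf1 (1.03-fold, PZH over control). Of the 10 genes, 3 were called higher and 0 lower (limma on log2(FPKM + 1), Benjamini-Hochberg adjusted p under 0.05), beside 12.7% of all genes called higher and 32.1% called lower. By the 2-fold rule of the study, which asks for a change of 2-fold with an unadjusted p under 0.05, 0 of the 10 genes passed in either direction, beside 1.52% of all genes higher and 2.5% lower. The fitted difference was above 0 for 8 of the 10 genes, beside 34.8% of all genes. At an unadjusted p under 0.05 without a fold limit, Mup3 was lower as well. The median log2 difference was 0.28 over the 10 genes and -0.11 over all genes. The median over all genes moved to -0.00104 when each mouse was divided by a median-ratio scale factor, and the calls over all genes went from 1798 higher and 4560 lower to 2807 higher and 2739 lower. The share of calls that were higher was therefore 28.3% as deposited and 50.6% with this factor. Ghr, Mup20 and Igfbp2 were called higher under both scalings, and Igfbp4 and Stat5b were called higher only with the median-ratio factor.

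**Figure D1:**
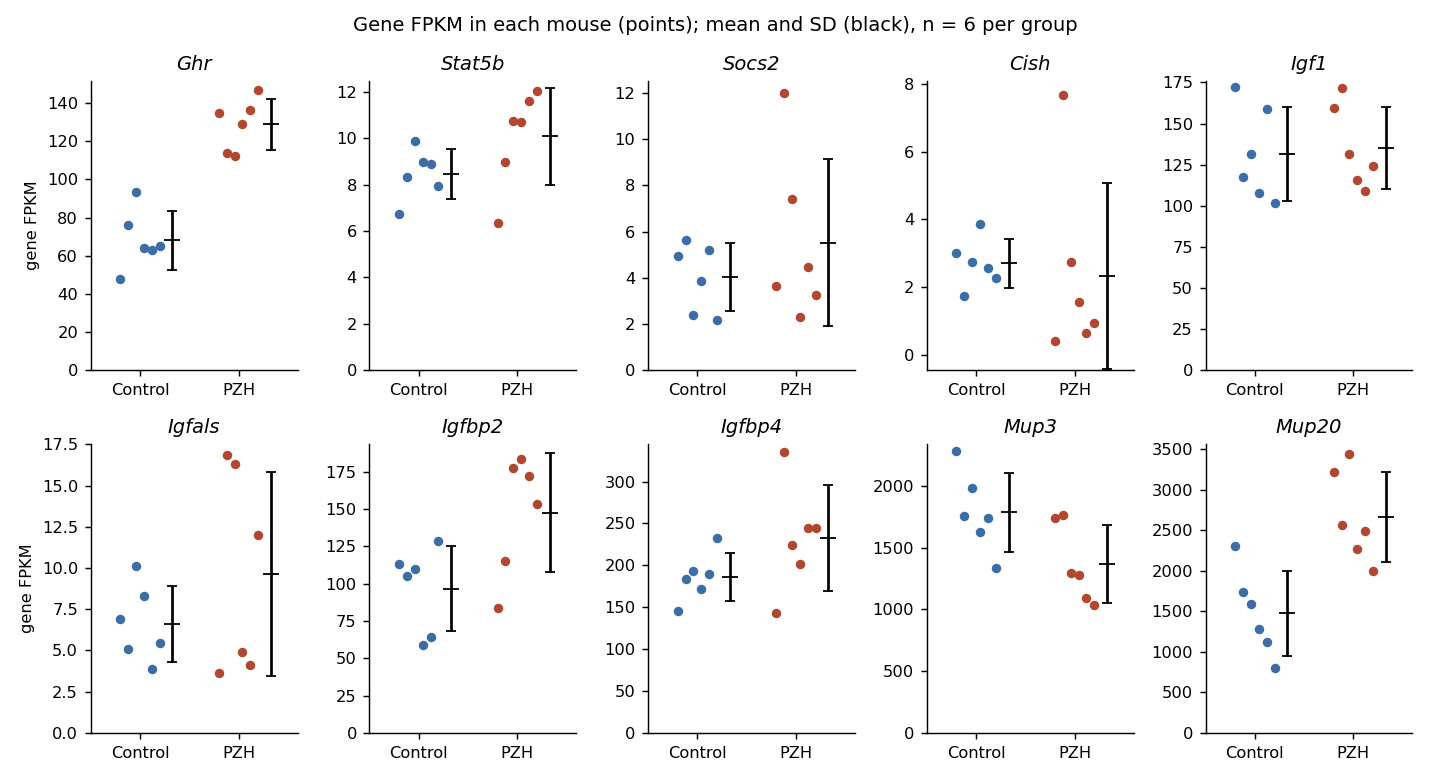
Gene FPKM (vertical axis, linear, 1 panel per gene) of the 10 genes in each of 6 control and 6 PZH mice (points), with the mean and SD of each group in black. Ghr separated the groups without overlap, whereas Cish, Socs2 and Igfals had wider spread in the PZH mice, and the SD of Cish in the PZH group is larger than its mean.

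The level of Ghr (chr15:3317760-3583230, minus strand, GENCODE M21 on GRCm38) was lowest at 47.6 FPKM, with a median of 64.3 and a highest value of 93.2, in the control mice. In the PZH mice the lowest value was 112, the median 132 and the highest 147 FPKM. Every PZH mouse was above every control mouse, which held for 6.46% of all genes in this direction. The means were 129 ± 13.4 and 68.0 ± 15.3 FPKM (SD, n = 6 per group), a 1.89-fold difference. On the log2 scale the difference was 0.93 with an SE of 0.13 (limma, adjusted p = 0.000156). Leaving out any 1 mouse kept this difference between 0.84 and 1.03. In bulk liver, fewer cells of a type and less RNA per cell cannot be told apart, and this holds for all genes below.

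The Ghr gene is transcribed from several first exons. To show the promoters that the data bear on, the 250 bases before 2 RefSeq start sites (GRCm38.p6, minus strand, 5′ to 3′) are given, with each CG dinucleotide in capitals.
Ghr start 3583352, chr15:3583353-3583602: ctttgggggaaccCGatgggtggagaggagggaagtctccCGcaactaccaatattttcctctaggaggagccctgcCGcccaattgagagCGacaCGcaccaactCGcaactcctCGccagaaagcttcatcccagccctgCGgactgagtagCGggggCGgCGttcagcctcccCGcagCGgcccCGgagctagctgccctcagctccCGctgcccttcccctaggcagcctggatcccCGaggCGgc
Ghr start 3581842, chr15:3581843-3582092: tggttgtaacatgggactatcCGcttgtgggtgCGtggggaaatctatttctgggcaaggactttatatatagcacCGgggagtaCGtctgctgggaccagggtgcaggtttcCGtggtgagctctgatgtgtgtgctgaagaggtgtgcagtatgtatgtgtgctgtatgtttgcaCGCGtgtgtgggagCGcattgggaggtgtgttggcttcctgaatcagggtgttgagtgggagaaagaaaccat
The first window, which lies before the first exon of Ghr-201, held 17 CG dinucleotides at a GC content of 65.6%. The second window, within the first intron of Ghr-201 and directly before the first exon of Ghr-208, held 8 at a GC content of 52.0%.

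Ghr-201, which encodes the full-length receptor, was the 1 Ghr transcript that passed the test. Its values were 63.2 to 82.3 FPKM in the PZH mice against 28.0 to 43.2 FPKM in the control mice. The groups did not overlap, as for 3.41% of all transcripts in this direction, and the log2 difference was 0.93 (limma over all transcripts, adjusted p = 0.000219). Ghr-208, which has the same receptor coding end and the other start site, was at 32.0 FPKM in PZH mouse 1 and 28.9 FPKM in PZH mouse 3. In the other 10 mice it was at 0.273 FPKM or less. Ghr-208 was thus high in only some of the PZH mice, and the transcript test did not call it (log2 difference 1.74, limma, adjusted p = 0.222).

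A shorter Ghr form, which in mice encodes the soluble growth hormone binding protein, leaves the receptor reading frame at a different last coding exon. The stretch where the forms part is shown because the full-length form differed between the groups, with the shared end of the previous exon in lower case and the form's own coding exon in capitals.
Ghr-203, short form, chr15:3327607-3327686: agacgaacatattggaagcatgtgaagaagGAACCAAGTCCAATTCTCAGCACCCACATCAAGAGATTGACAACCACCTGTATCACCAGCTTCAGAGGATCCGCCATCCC
Ghr-201, full-length, chr15:3325898-3325988: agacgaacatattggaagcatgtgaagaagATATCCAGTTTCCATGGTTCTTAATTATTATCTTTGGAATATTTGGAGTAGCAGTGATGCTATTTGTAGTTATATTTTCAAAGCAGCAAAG
The exon of the short form holds 80 coding bases and is its last coding exon, and the exon of 91 bases in the full-length form encodes the membrane-spanning part. The coding sequence is 891 bases long in Ghr-203 and 1950 bases in Ghr-201. The coordinates are those of the bases in capitals.

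The full-length transcripts Ghr-201 and Ghr-208 summed to 63.5 to 104 FPKM in the PZH mice against to 28.1 to 43.3 FPKM in the control mice. This sum was 2.20-fold higher in the PZH group without overlap (two-sided exact permutation test over all labellings of the mice, p = 0.0022, the smallest this design can give, n = 6 per group). The short-form transcripts Ghr-202 and Ghr-203 summed to 8.08 to 43.2 FPKM in the PZH mice against 8.92 to 34.8 FPKM in the control mice. For the short form the groups overlapped over most of their range (exact permutation p = 0.253). As a percent of both forms, the short form was 23.7 ± 9.97% in the PZH group against 30.7 ± 9.24% in the control group (SD, n = 6 per group, exact permutation p = 0.234). These sums were set up after the transcript values were seen and are not adjusted for that choice. Within the short form, Ghr-202 and Ghr-203 traded places between mice. For instance, PZH mouse 6 had 42.1 FPKM of Ghr-203 and 1.07 FPKM of Ghr-202, while PZH mouse 5 had 0.285 and 31.1 FPKM. In control mice 1, 3 and 5, Ghr-203 was at 10.3, 34.2 and 8.38 FPKM and Ghr-202 at 0.655 FPKM or less. In control mice 2, 4 and 6, Ghr-202 was at 21.7, 16.9 and 14.6 FPKM and Ghr-203 at 0.123 FPKM or less. The remaining transcript, Ghr-209, ends before the forms part and can be placed in neither. It had 19.7 ± 7.75 FPKM in the PZH group against 12.2 ± 3.30 FPKM in the control group (SD, n = 6, limma, adjusted p = 0.151).

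**Figure D2:**
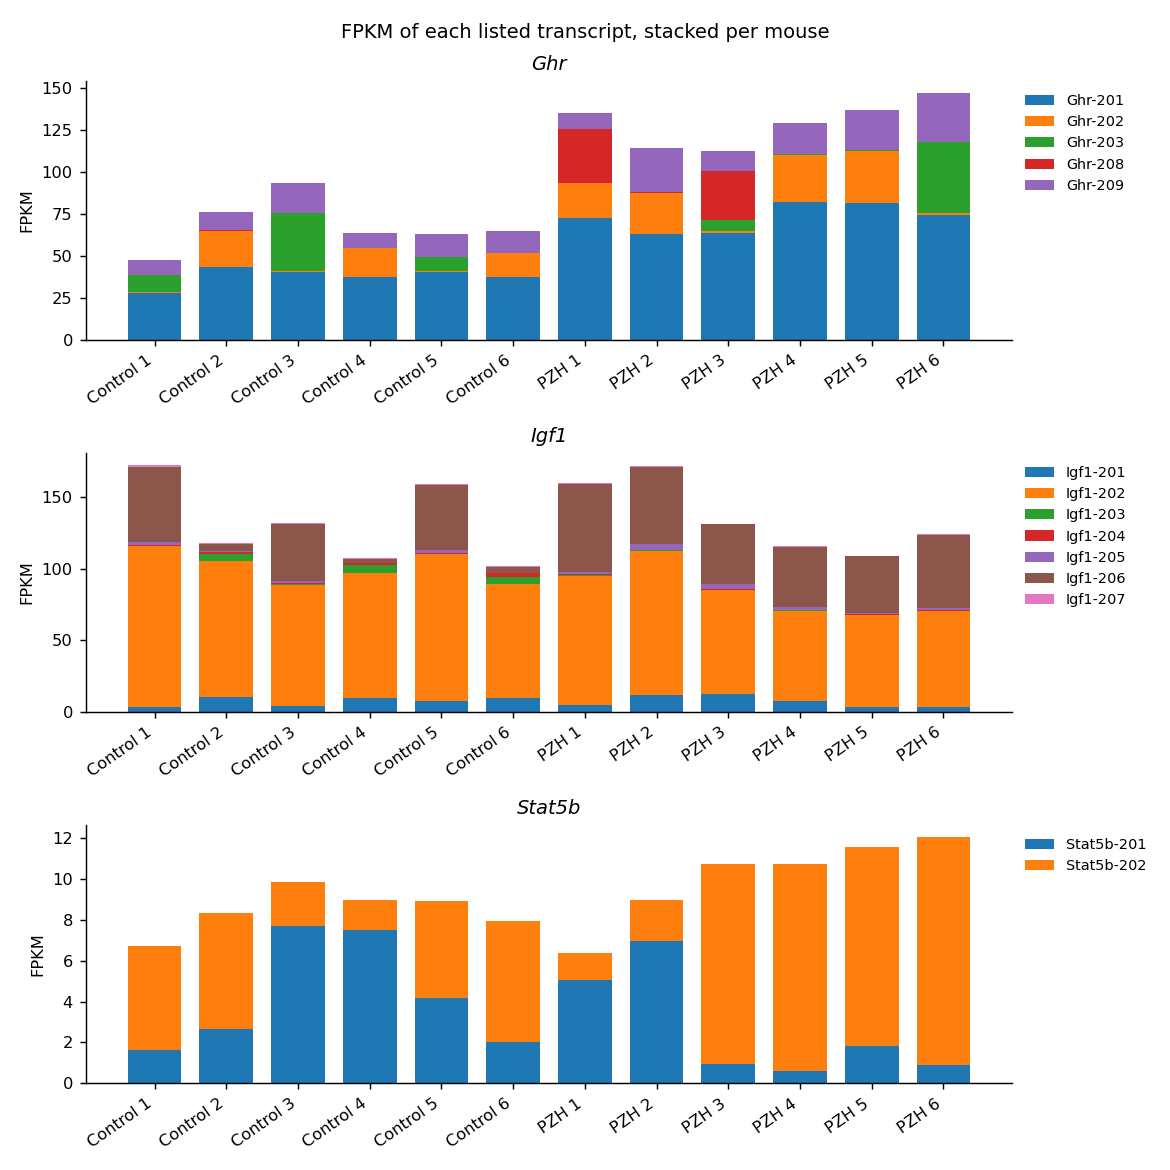
FPKM (vertical axis, linear) of each listed transcript of Ghr, Igf1 and Stat5b, stacked within each of the 12 mice (horizontal axis). Ghr-201 was taller in every PZH mouse, Ghr-208 was visible in PZH mice 1 and 3, Igf1-206 was at 4.91 FPKM or less in control mice 2, 4 and 6, and the Stat5b transcripts traded places between mice.

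Stat5b (chr11:100780731-100850724, minus strand), which carries the signal from the receptor to the nucleus, ranged from 6.73 to 9.86 FPKM in the control mice with a median of 8.61. In the PZH mice it ranged from 6.36 to 12.1 FPKM with a median of 10.7. Of the PZH mice, 4 were above every control mouse, but PZH mouse 1 was the lowest of all 12 mice. The log2 difference was 0.21 with an SE of 0.13 and a 95% interval from -0.08 to 0.50 (limma, adjusted p = 0.221). Without PZH mouse 1 the difference was 0.32 and was called (limma, adjusted p = 0.0156). The transcripts Stat5b-201 and Stat5b-202, which differ in their first exons, traded places: Stat5b-202 made up 20.5% to 94.1% of Stat5b in the PZH mice against 16.5% to 75.5% in the control mice. Stat5a, the close relative of Stat5b, was at 3.59 ± 0.652 FPKM in the PZH group against 3.86 ± 0.669 FPKM in the control group (SD, n = 6).

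Socs2 and Cish are inhibitors that Stat5 induces and that act back on the receptor. Socs2 (chr10:95411490-95416857, minus strand) ranged from 2.18 to 5.64 FPKM in the control mice with a median of 4.41, and from 2.31 to 12.01 FPKM in the PZH mice with a median of 4.07. The medians were close, and the higher PZH mean (5.52 ± 3.62 against 4.04 ± 1.48 FPKM, SD, n = 6) came with high values in PZH mice 2 and 3, at 12.01 and 7.42 FPKM. The log2 difference was 0.27 with an SE of 0.31 (limma, adjusted p = 0.510).

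Cish (chr9:107296026-107302784, plus strand) ranged from 1.74 to 3.86 FPKM in the control mice with a median of 2.64, and from 0.398 to 7.68 FPKM in the PZH mice with a median of 1.23. PZH mouse 2 had the highest Cish of all 12 mice, and 4 PZH mice were below every control mouse. The log2 difference was -0.45 with an SE of 0.37 (limma, adjusted p = 0.348). This value was decided by PZH mouse 2: without it the difference was -0.79 with an SE of 0.23, and Cish was called lower (limma, adjusted p = 0.0153).

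Cish, Socs2 and Igfals, which Stat5 induces, varied widely between the PZH mice. The highest PZH mouse was 19.3-fold above the lowest for Cish, 5.21-fold for Socs2 and 4.68-fold for Igfals, beside 2.22-fold, 2.59-fold and 2.62-fold in the control mice. The SD of log2(FPKM + 1) among the PZH mice was 0.97 for Cish, 0.91 for Igfals and 0.72 for Socs2. These were larger than the SD of 99.2%, 99.0% and 98.0% of the genes with a mean FPKM of at least 1, for which the median SD was 0.20. Among the control mice the SD was 0.28 for Cish, 0.43 for Igfals and 0.46 for Socs2. These were larger than the control SD of 79.3%, 91.9% and 93.1% of the same genes. The SD of Ghr was 0.15 among the PZH mice and 0.32 among the control mice. PZH mouse 2 was the highest of its group in Cish, Socs2, Igfals, Igfbp4, Igf1 and Mup3. PZH mouse 1 was the lowest in Cish, Igfals, Igfbp2, Igfbp4 and Stat5b. This mouse also had the lowest median-ratio scale factor of all 12 mice, 0.875, and its part in these values was not tested. Whether the groups differ in spread was not tested. Over the 12 mice, the gene with the pattern nearest to that of Cish among 10938 genes was Onecut1, with a root mean square difference of 0.462 after standardising both to an SD of 1. The median of this distance over all genes was 1.23. Onecut1, a hepatocyte transcription factor, was at 33.2 FPKM in PZH mouse 2, between 4.34 and 9.66 FPKM in the other PZH mice and between 8.41 and 10.5 FPKM in the control mice.

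**Figure D3:**
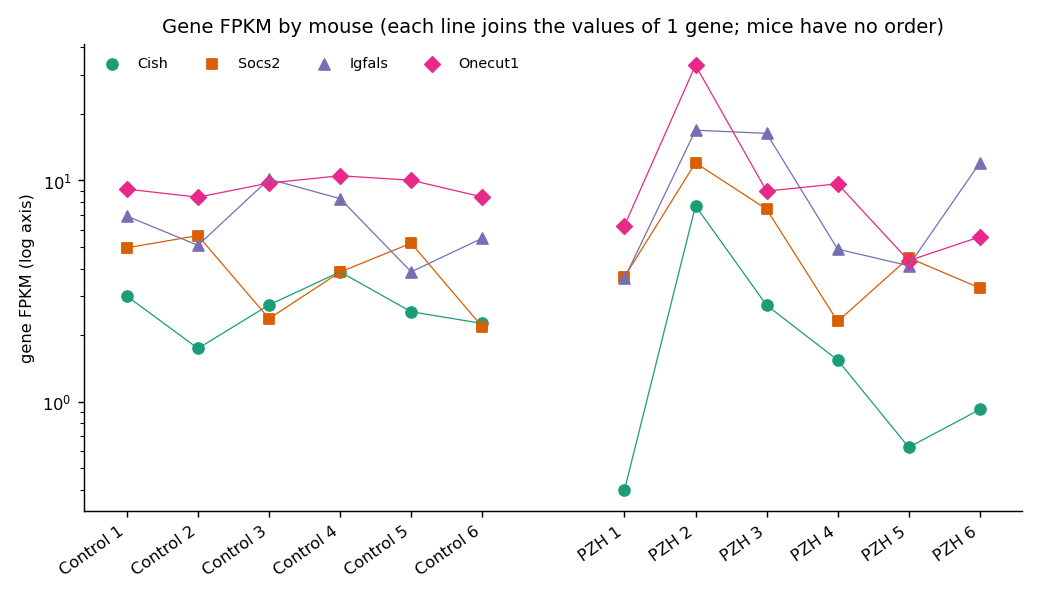
Gene FPKM (vertical axis, log scale) of Cish, Socs2, Igfals and Onecut1 in the 12 mice (horizontal axis), with a line joining the values of 1 gene within a group. All of these genes peak in PZH mouse 2, where Cish was 7.68 and Onecut1 33.2 FPKM, and Onecut1 is nearly level over the control mice, at 8.41 to 10.5 FPKM.

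Igf1 (chr10:87858265-87937042, plus strand), the main secreted product of growth hormone action in the liver, ranged from 102 to 172 FPKM in the control mice with a median of 125. In the PZH mice the range was 109 to 172 FPKM with a median of 128. The groups overlapped almost entirely, with means of 135 ± 24.9 and 132 ± 28.6 FPKM (SD, n = 6 per group). The log2 difference was 0.05 with a 95% interval from -0.28 to 0.37 (limma, adjusted p = 0.823), an interval that ends below the difference of Ghr.

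Igf1 has an upstream and a downstream first coding exon, which give the precursor different signal peptides, and an optional exon of 52 bases near the coding end. Its first coding bases are shown because the shares of these forms, set up after the values were seen, did not overlap between the groups. The bases of the first exon are in capitals and the shared next exon is in lower case.
Igf1-202, upstream first exon, chr10:87859350-87859412: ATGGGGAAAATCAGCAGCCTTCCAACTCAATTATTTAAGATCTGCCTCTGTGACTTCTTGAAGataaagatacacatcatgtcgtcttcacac
Igf1-206, downstream first exon, chr10:87861371-87861385: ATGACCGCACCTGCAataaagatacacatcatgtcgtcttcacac
The optional exon is in capitals below, between the exons on either side of it.
Igf1-206, optional exon, chr10:87915298-87915349: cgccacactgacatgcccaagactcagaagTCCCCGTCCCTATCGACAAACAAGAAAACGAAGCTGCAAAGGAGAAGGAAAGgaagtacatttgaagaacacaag
The upstream exon gives 63 coding bases and the downstream exon 15. The most abundant transcript was Igf1-202, without the optional exon, and the next was Igf1-206, which has the downstream start and the optional exon.

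The transcripts with the downstream first coding exon made up 40.3% to 45.5% of Igf1 in the PZH mice against 12.9% to 35.1% in the control mice. The means were 43.0 ± 2.15% and 24.4 ± 11.03% (SD, n = 6 per group), and the groups did not overlap (exact permutation p = 0.0022). Transcripts with the 52-base exon made up 36.3 ± 3.90% in the PZH group against 19.1 ± 11.9% in the control group (SD, n = 6 per group, exact permutation p = 0.0022). These forms were also set up after the values were seen. The downstream share was 33.7%, 35.1% and 34.6% in control mice 1, 3 and 5. It was 14.3%, 12.9% and 16.1% in control mice 2, 4 and 6. Ghr-202 and Ghr-203 split the control mice into the same sets, and the cause was not tested. The control mice fell into separate sets for Igf1-206, which was 53.0, 39.9 and 44.8 FPKM in control mice 1, 3 and 5 and 4.91, 2.69 and 3.90 FPKM in control mice 2, 4 and 6. In the PZH mice it was 39.6 to 61.1 FPKM, and the transcript test did not call it (log2 difference 1.71, limma, adjusted p = 0.109). The sum over the upstream first coding exon was 77.3 ± 15.7 FPKM in the PZH group against 97.2 ± 11.3 FPKM in the control group (SD, n = 6, exact permutation p = 0.0346, overlapping groups).

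The share of the most abundant transcript was compared for every gene with several listed transcripts. For 2 of the 8 such genes here it differed at an unadjusted p under 0.05, beside 12.4% of 6676 genes. After Benjamini-Hochberg adjustment over the 6676 genes 0 passed, and the smallest adjusted p was 0.136. The permutation test can give no p below 0.0022, so a gene could pass only if many genes shared that smallest p. The adjusted result therefore cannot decide for a single gene. Igf1-202 made up 56.2 ± 2.24% of Igf1 in the PZH group against 72.4 ± 8.47% in the control group (SD, n = 6, exact permutation p = 0.0022). Mup3-202 made up 78.9 ± 7.54% and 73.1 ± 0.354% of Mup3 (SD, n = 6, exact permutation p = 0.0022). The shares were 73.73% to 89.25% in the PZH mice against 72.74% to 73.68% in the control mice, so the groups only just missed overlapping. Mup3-202 was at 1554 and 1548 FPKM in PZH mice 1 and 2, and Mup3-201 at 178 and 203 FPKM. In the other PZH mice Mup3-202 was at 768 to 957 FPKM and Mup3-201 at 263 to 328 FPKM. For the 6 others the unadjusted exact permutation p ranged from 0.0801 for Cish to 0.994 for Ghr. How reads shared by transcripts were divided is an estimate of the assembly program, and its part in these shares was not tested.

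Igfals encodes the acid-labile subunit, which holds Igf1 and Igfbp3 in a large complex in blood. Its start region is shown because, among the windows searched, only its own held the letters TTCNNNGAA, a spacing that Stat5 is known to bind. The motif was searched in the 250 bases before each RefSeq start and reads the same on both strands. Its letters are in capitals.
Igfals, 236 bases before the start at 24877844, chr17:24877598-24877626: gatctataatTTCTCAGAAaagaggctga
Igfals, 58 bases before the start at 24878231, chr17:24878163-24878191: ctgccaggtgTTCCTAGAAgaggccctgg
The RefSeq table held 13 windows for 8 of the 10 genes, without Socs2 and Mup20, and 2 windows, both of Igfals, had the motif. It was found in 7.02% of all 32851 windows. A match describes letters in a window and not a bound site. The Igf1 window began at 87860861, downstream of the start of its most abundant transcript Igf1-202 at 87859068. The Cish window began at 107296409, downstream of the start of its most abundant transcript Cish-201 at 107296026. The bases before those transcript starts were not searched.

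Igfals (chr17:24878258-24882010, plus strand) ranged from 3.87 to 10.1 FPKM in the control mice with a median of 6.19, and from 3.61 to 16.9 FPKM in the PZH mice with a median of 8.45. The PZH mice were spread to both sides, with 16.9, 16.3 and 12.003 FPKM in PZH mice 2, 3 and 6 above every control mouse and the others at 4.89 FPKM or less. The log2 difference was 0.31 with an SE of 0.36 (limma, adjusted p = 0.526).

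Igfbp2 and Igfbp4 bind Igf1 in blood and tissue. Igfbp2 (chr1:72824503-72852474, plus strand) ranged from 59.1 to 129 FPKM in the control mice with a median of 107, and from 83.8 to 183 FPKM in the PZH mice with a median of 163. The ranges overlapped through PZH mice 1 and 2, while the other 4 PZH mice were above every control mouse. The means were 148 ± 39.8 and 96.7 ± 28.2 FPKM (SD, n = 6 per group), and the log2 difference was 0.61 with an SE of 0.23 (limma, adjusted p = 0.0488). This call was close to the threshold and was lost with a pseudocount of 0.1 (limma, adjusted p = 0.05635) and without any 1 of PZH mice 3 to 6 or control mice 2 to 5. Its transcripts Igfbp2-201 and Igfbp2-202 traded places between mice, with Igfbp2-202 at 107 FPKM in PZH mouse 4 and 0.0485 FPKM in PZH mouse 2.

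Igfbp4 (chr11:99041244-99054392, plus strand) ranged from 146 to 233 FPKM in the control mice with a median of 186, and from 144 to 336 FPKM in the PZH mice with a median of 234. The highest value was that of PZH mouse 2, in which the short transcript Igfbp4-204 was at 140 FPKM. In the other 11 mice this transcript was between 1.21 and 12.8 FPKM. The log2 difference of the gene was 0.29 with an SE of 0.17 (limma, adjusted p = 0.187), and it was called with the median-ratio factor (0.48, limma, adjusted p = 0.0192) and without PZH mouse 1 (0.42, limma, adjusted p = 0.0263).

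Among the other IGF binding proteins, Igfbp1 and Igfbp3 moved further than any of the 10 genes and in opposite directions. Igfbp1, which insulin represses and fasting and injury induce, was 110 to 415 FPKM in the control mice with a median of 232 and 16.4 to 57.02 FPKM in the PZH mice with a median of 40.7. The groups did not overlap, as for 17.9% of all genes in this direction, and Igfbp1 fell by 2.56 on the log2 scale, with an SE of 0.36 (limma, adjusted p = 0.000149). Igfbp3, the main carrier of circulating Igf1, was 5.38 to 7.68 FPKM in the control mice and 10.03 to 17.6 FPKM in the PZH mice. It also separated the groups, and it rose by 1.06 on the log2 scale with an SE of 0.12 (limma, adjusted p = 3.3e-05).

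Of 17 genes listed for the IGF system, 15 were in the table, of which 2 were called higher (Igfbp2, Igfbp3) and 2 lower (Igfbp1 and Pappa, a protease that cleaves Igfbp4). Of all genes 12.7% were called higher and 32.1% lower, and the median difference of this list was 0.05. Pappa was at 0.161 ± 0.0314 FPKM in the PZH group against 0.312 ± 0.0754 FPKM in the control group (SD, n = 6). The Igf1 receptor Igf1r, which hepatocytes express at low levels, was at 1.12 ± 0.252 and 1.20 ± 0.133 FPKM (SD, n = 6), and its log2 difference of -0.06 changed sign with the median-ratio factor.

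Of 21 genes listed for growth hormone receptor signalling, 2 were called higher (Ghr and the insulin receptor substrate Irs1) and 6 lower, beside 12.7% and 32.1% of all genes, with a median of -0.08. The kinase Jak2 was 7.97 to 11.1 FPKM in the control mice and 5.60 to 6.95 FPKM in the PZH mice. The groups did not overlap, and Jak2 fell by 0.46 on the log2 scale while its receptor rose (limma, adjusted p = 0.000684). The inhibitor Socs3, which cytokines induce, was 4.09 to 14.7 FPKM in the control mice and 1.49 to 7.50 FPKM in the PZH mice, and it fell by 1.04 with overlapping groups (limma, adjusted p = 0.0222). The others called lower were Stat3 (-0.99), the phosphatase Ptpn1 (-0.89), the adaptor Shc1 (-0.53) and the phosphatase Ptpn2 (-0.32, named after its values were seen). Socs1 was under 0.25 FPKM in all 12 mice. The related prolactin receptor Prlr was at 29.9 ± 7.33 FPKM in the PZH group against 27.1 ± 3.79 FPKM in the control group (SD, n = 6, limma, adjusted p = 0.541).

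**Figure D4:**
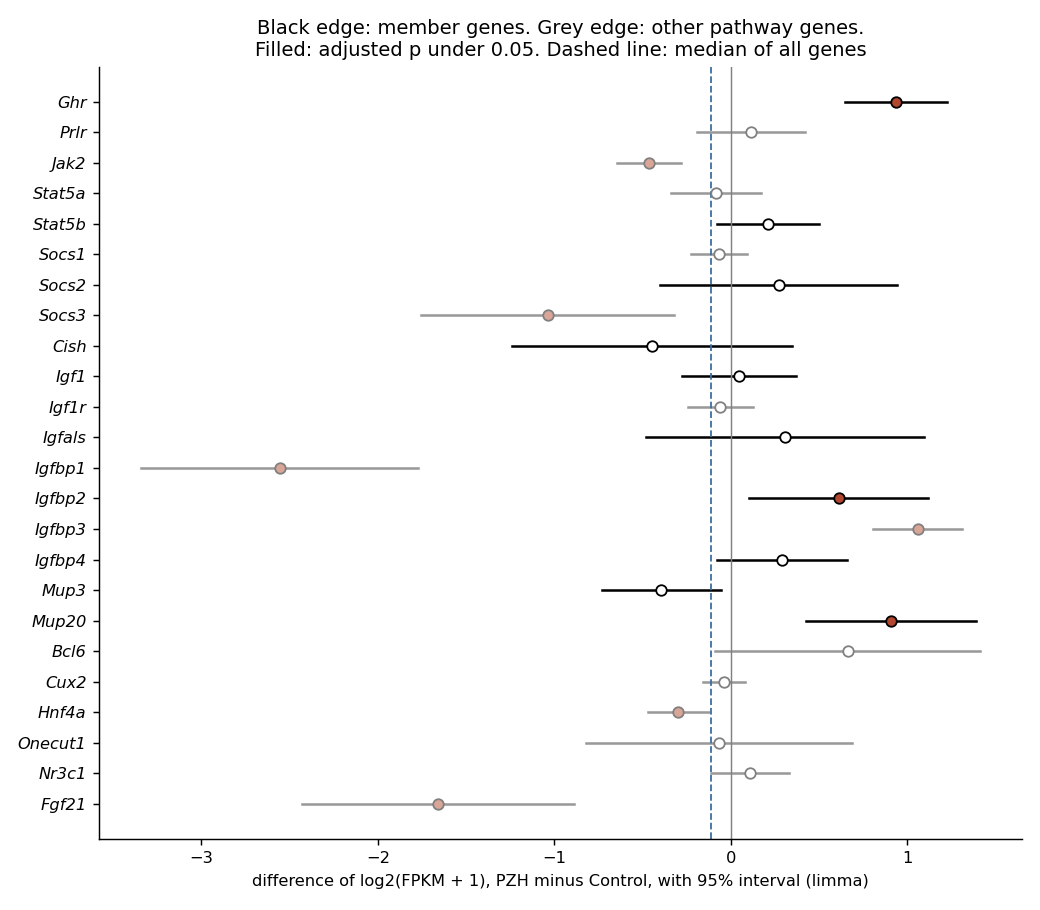
Difference of log2(FPKM + 1), PZH minus control, with its 95% interval (horizontal axis, limma) for the 10 genes (black edges) and for other genes of growth hormone and IGF signalling and their regulators (grey edges). Filled points had an adjusted p under 0.05, the dashed line is the median of all genes at -0.11, and Ghr (0.93) and Mup20 (0.91) lie on the right while Igfbp1 (-2.56) lies far to the left.

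Mup20 and Mup3 encode pheromone-binding proteins that male livers secrete in large amounts. Mup20 (chr4:62050234-62054158, minus strand) ranged from 801 to 2302 FPKM in the control mice with a median of 1438, and from 2000 to 3437 FPKM in the PZH mice with a median of 2527. The ranges overlapped only through control mouse 1, which was the highest of the control mice. The log2 difference was 0.91 with an SE of 0.22 (limma, adjusted p = 0.00529).

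Mup3 (chr4:62083476-62087342, minus strand) ranged from 1332 to 2279 FPKM in the control mice with a median of 1747, and from 1038 to 1760 FPKM in the PZH mice with a median of 1287. The groups overlapped, and the log2 difference of -0.40 with an SE of 0.16 was just outside the threshold (limma, adjusted p = 0.0549). Its transcript Mup3-201 was 349 to 607 FPKM in the control mice and 178 to 328 FPKM in the PZH mice. This transcript did not overlap between the groups, as for 8.58% of all transcripts in this direction, and fell by 0.86 on the log2 scale (limma over all transcripts, adjusted p = 0.00399). Of the 29 transcripts, it was the 1 called lower, and Ghr-201 and Mup20-201 were the 2 called higher, beside 14.0% and 5.73% of all transcripts.

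Within a mouse, Mup20 was 1.45 to 2.66 times Mup3 in the PZH group and 0.602 to 1.01 times Mup3 in the control group. The groups of this ratio did not overlap (exact permutation p = 0.0022, n = 6 per group). This ratio and the share of Mup20 given below were not planned comparisons. The ratio divides the gene called higher by one with a negative fitted difference, so its separation adds no support beyond those differences. The 18 Mup genes of the table are near-identical copies, so reads can be divided between them wrongly and the value of a single Mup gene is uncertain. Their sum was 4559 ± 870 FPKM in the PZH group against 4113 ± 1070 FPKM in the control group (SD, n = 6 per group), a log2 difference of 0.16 that was within the spread between mice (exact permutation p = 0.392). Of this sum Mup20 made up 51.5% to 65.2% in the PZH mice against 28.8% to 41.8% in the control mice. Of the 18 genes, Mup20 was called higher, and Mup6 and Mup10 were called lower (log2 differences of -0.64 and -1.40, limma, adjusted p = 0.000832 and 0.0490). Mup6 was at 1.02 FPKM or less in all 12 mice. The Mup10 call was lost with a pseudocount of 0.1 (limma, adjusted p = 0.0536), with the median-ratio factor (-1.21, limma, adjusted p = 0.0928), without moderation, and without any 1 of PZH mice 1, 2, 4, 5 and 6 or control mice 1, 4 and 5.

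**Figure D5:**
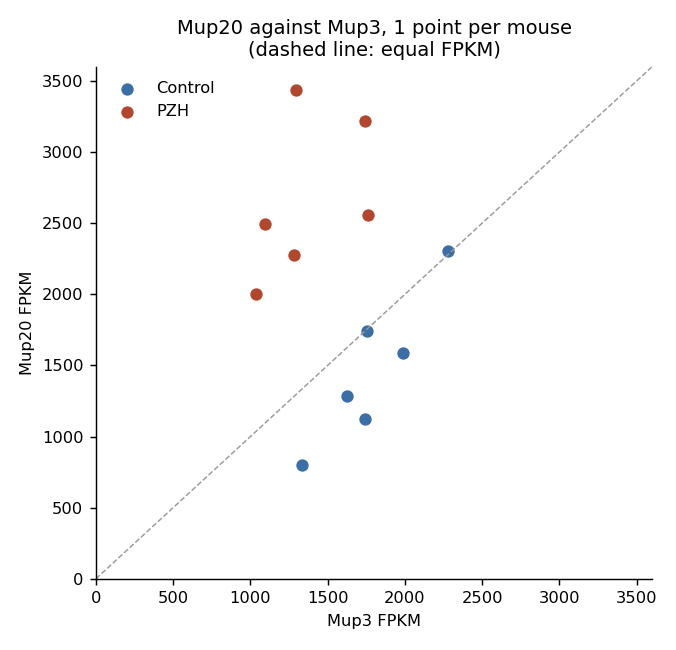
Mup20 FPKM (vertical axis, linear) against Mup3 FPKM (horizontal axis, linear) with 1 point per mouse and a dashed line of equal FPKM. The PZH mice all lie above the line, at ratios from 1.45 to 2.66, and the control mice lie close to it or below it, at 0.602 to 1.01.

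The order of the levels per length was nearly the same in both groups. In the PZH group Mup20 came first and Mup3 next, without overlap between them, and in the control group Mup3 came before Mup20 with overlapping ranges. Igfbp4, Igfbp2, Igf1 and Ghr followed in the PZH group, with means of 232, 148, 135 and 129 FPKM and overlapping neighbours. Stat5b, Igfals, Socs2 and Cish were lowest in both groups, each overlapping the next, with PZH means of 10.1, 9.64, 5.52 and 2.32 FPKM.

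The patterns of the 10 genes over the mice were not one pattern. The nearest pair among them was Igf1 and Mup3, with a distance of 0.872, followed by Ghr and Mup20 with 0.883, and the farthest was Stat5b and Mup3 with 1.86. For Ghr the nearest gene in the table was Tbc1d32, with a distance of 0.155 and levels of 1.58 to 1.88 FPKM in the PZH mice against 0.829 to 1.42 FPKM in the control mice. The nearest genes to the others were Dnmbp for Stat5b (0.254), Dennd5b for Igfbp4 (0.271), Zfp322a for Mup3 (0.319), Ndufa13 for Mup20 (0.415), Ccdc32 for Igf1 (0.454), Aldh9a1 for Igfbp2 (0.474), Ankzf1 for Socs2 (0.526) and Amigo2 for Igfals (0.602). These distances describe 12 mice and carry no test.

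Genes known to follow the sex-specific pattern of growth hormone did not move as 1 group. Of 18 male-biased genes in the table, 5 were called higher and 2 lower, beside 12.7% and 32.1% of all genes. Nudt7, a peroxisomal coenzyme A hydrolase, rose by 2.05 and Selenbp2, a selenium-binding protein, by 1.89 on the log2 scale (limma, adjusted p = 1.4e-05 and 0.000393). Hsd3b5, a steroid dehydrogenase, rose by 0.73 and the glucuronosyltransferase Ugt2b1 by 0.53 (limma, adjusted p = 0.0277 and 0.00125). Hsd3b5 was low, at 0.284 to 2.73 FPKM in the PZH mice against 0.0670 to 1.28 FPKM in the control mice, with overlapping groups. The fatty acid hydroxylases Cyp4a12a and Cyp4a12b, which are male-biased too, fell by 1.11 and 0.79 (limma, adjusted p = 0.000732 and 0.0255). The Hsd3b5 call was lost without moderation (limma, adjusted p = 0.0542) and without any 1 of PZH mice 1, 2 and 5 or control mice 1, 3 and 6. That of Cyp4a12b was lost with the median-ratio factor (-0.61, limma, adjusted p = 0.0875), without moderation, and without any 1 of PZH mice 1, 5 and 6 or control mice 1 and 4. Of 14 female-biased genes in the table, 5 were called higher and 1 lower, beside the same shares of all genes. Acot3, an acyl-CoA thioesterase, rose by 1.11 (limma, adjusted p = 0.00135), and Sult2a2, Hao2 and Cyp3a44, which were called too, were at 1.33 FPKM or less, with 7 of the 14 genes at a mean under 1 FPKM. The Cyp3a44 call was lost without any 1 of PZH mice 1, 4, 5 and 6 or control mice 1, 3 and 5, and that of Hao2 without PZH mouse 6 or control mouse 4 or 5. Bcl6 and Cux2, the male-biased and female-biased repressors of this programme, were at 8.57 ± 5.73 and 0.104 ± 0.0501 FPKM in the PZH group and at 4.44 ± 1.83 and 0.134 ± 0.0554 FPKM in the control group (SD, n = 6), and neither was called.

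Inflammation and fasting are known to lower the response to growth hormone. Of 16 genes listed for either in the table, 12 were called lower and 2 higher, beside 32.1% and 12.7% of all genes, with a median of -1.14. The genes called lower were inflammatory apart from Fgf21, and the 2 called higher, Klb and Ppargc1a, were listed for fasting. The acute-phase gene Fgl1 fell by 1.53, the cytokines Il1b by 1.55 and Tnf by 0.81, and the receptor Tnfrsf1a by 0.75 (limma, adjusted p = 5.9e-05, 0.000603, 0.000297 and 0.000374). Tnf was low, with means of 0.292 FPKM in the PZH group and 1.28 FPKM in the control group, a 0.228-fold ratio. At such levels the 1 added before the log makes the log2 difference smaller. The ratio of means was 0.587-fold for Tnfrsf1a. Fgf21, a fasting hormone of the liver, was 3.58 to 17.8 FPKM in the control mice and 1.01 to 5.92 FPKM in the PZH mice, and it fell by 1.66 with overlapping groups (limma, adjusted p = 0.00225). Its co-receptor Klb rose by 0.41 and Ppargc1a by 0.39 (limma, adjusted p = 0.0174 and 0.0296), and the Ppargc1a call was lost without any 1 of PZH mice 3, 4 and 6 or control mice 1, 2, 3 and 6. Of 15 liver transcription factors, 3 were called higher (Nr1h4 0.98, Ppara 0.92, Cebpa 0.55) and 4 lower (Foxa3 -1.27, Cebpb -1.20, Cebpd -0.60, Hnf4a -0.30), beside 12.7% and 32.1% of all genes. With the median-ratio factor Hnf4a was at -0.11 and not called (limma, adjusted p = 0.2496). The glucocorticoid receptor Nr3c1, which works with Stat5 on its targets, was at 20.9 ± 0.336 FPKM in the PZH group against 19.6 ± 3.28 FPKM in the control group (SD, n = 6).

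Cell type markers were read because a change in the makeup of the liver would move the genes of hepatocytes. Of 8 hepatocyte markers, 4 were called higher (Alb, Ttr, Cps1, Asgr1) and 0 lower, beside 12.7% and 32.1% of all genes. The lowest level of any hepatocyte marker in any mouse was 121 FPKM, of Asgr1. The sum of these markers was 43062 to 60017 FPKM in the PZH mice against 25123 to 38779 FPKM in the control mice. Most of this sum was Alb, with means of 38437 FPKM in the PZH group and 24059 FPKM in the control group. The median log2 difference was 0.36 over the hepatocyte markers, beside 0.93 for Ghr. Single markers ranged from 0.07 for Serpina1a to 0.85 for Cps1, with Alb and Ttr both at 0.68. Beside the same shares of all genes, higher and lower calls numbered 2 and 3 of 9 for stellate cells and myofibroblasts (sums of 125 to 212 and 99.5 to 172 FPKM in PZH and control mice), and 4 and 2 of 10 for macrophages (382 to 583 and 387 to 490 FPKM). They numbered 0 and 2 of 7 for endothelium (105 to 132 and 111 to 127 FPKM), 0 and 1 of 5 for cholangiocytes (66.9 to 133 and 96.9 to 161 FPKM), and 0 and 0 of 8 for lymphocytes and neutrophils (7.65 to 120 and 12.3 to 50.5 FPKM), of which 6 had a mean under 1 FPKM. The part of the higher hepatocyte markers in the levels of Ghr, Mup20 and Igfbp2 was not tested.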

How the data were processed

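Livers were taken after 8 weeks of treatment, and the authors sequenced strand-specific libraries depleted of ribosomal RNA. The authors trimmed reads with Trimmomatic, mapped them to GRCm38 with HISAT2 2.1.0 and quantified Ensembl release 95 transcripts with StringTie 1.3.5, and they deposited FPKM per transcript and mouse, already divided by length and library size. Here 29876 of 29883 protein-coding transcripts were matched to GENCODE M21 genes, and 7 were not used. The lncRNA table was not used. FPKM were summed per gene, and log2(FPKM + 1) was fitted over all genes, or all transcripts, with limma 3.58.1 in R 4.3.3, default moderation, no covariates and no filter, with Benjamini-Hochberg adjustment. Single values were compared by two-sided exact permutation tests over all labellings of the mice. Other steps ran in Python 3.11.15 (scipy 1.17.1, pandas 2.3.3, matplotlib 3.10.9, numpy 2.4.6).

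The groups are those of the labels, which give each mouse its own sample and no batch. The steps of low FPKM imply 27.0 to 43.0 M fragments per mouse, but only 8.13% to 15.2% of low values lay within 1% of a whole step, and read counts could not be taken from them, which leaves counting error unknown. The highest implied depth, 43.0 M, was that of PZH mouse 1, with 27.0 to 35.5 M in the other mice. PZH mouse 1 also had the lowest share of values on a step, 8.13%. Mice with the same number did not deviate together (correlations from -0.0834 to 0.0933), so the main fit has no block.

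The genes and lists were chosen with earlier results of these data known. Named were all 10 genes and those of their transcripts whose mean FPKM reached 1, 14 pathway genes fixed by name, up to 4 called genes per list and direction with the smallest adjusted p, and for each gene the one with the nearest standardised pattern. Settings tried beside the main one were a filter at a mean FPKM of 1, a pseudocount of 0.1, a median-ratio scale factor, equal sums, no moderation, a mean-variance trend, a replicate block and each mouse left out. Tested on simulated data of 14188 genes, the gene fit recovered 98.5% of 200 genes changed by 1.5 (log2), with 12 false calls. The differences of the 10 genes were all smaller than 1.5, and recovery of smaller changes was not tested. Promoter windows are from RefSeq (GRCm38.p6) and exon sequences from GENCODE M21.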

Additional observations from a re-analysis of the deposited data

Results flagged for a closer look

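In 162 sets of 6 mice, each within 1 group, 15 had a single mouse far from the other 5 by Dixon's criterion. Chance alone gives about 1 in 20. The sets included the 10 genes and pathway genes named here, but did not cover every listed pathway gene. Among the 10 genes it was Cish, at 7.68 FPKM in PZH mouse 2 with the other PZH mice between 0.398 and 2.73 FPKM. The same mouse stood apart in Onecut1 at 33.2 FPKM, with the others between 4.34 and 9.66 FPKM. PZH mouse 1 stood apart in Hnf4a (105 FPKM, the others 135 to 146), Tnfrsf1a (20.8 FPKM, the others 29.0 to 31.5), Hao2 (0.435 FPKM) and Mup6 (0.576 FPKM). PZH mouse 3 stood apart in Mup10 (121 FPKM, the others 25.4 to 54.8) and Tnf (0.710 FPKM), and PZH mouse 6 in Acot3 (7.46 FPKM).

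In the control group it was Igfbp3 in control mouse 2 (7.68 FPKM, the others 5.38 to 6.10), Stat5a in control mouse 1 (2.56 FPKM, the others 3.94 to 4.41), Bcl6 and Nr3c1 in control mouse 5 (7.88 and 13.4 FPKM), and Sult2a2 and Tox in control mouse 6 (0.119 and 1.29 FPKM).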

How the results depend on the processing

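Ghr and Mup20 were called higher under every alternative run. Of the 10 genes, 5 were called higher with the median-ratio factor, with Igfbp4 at 0.48 and Stat5b at 0.38, against 3 as deposited, and 2 to 5 with 1 mouse left out. The number called lower was 1 (Mup3) with a mean FPKM of at least 1 (-0.40), with equal sums (-0.44) and with the replicate block (-0.40), and 0 to 2 with 1 mouse left out (2 without PZH mouse 2, Mup3 and Cish). Igfbp2 was not called with a pseudocount of 0.1 (0.62), with equal sums (0.57), without moderation (0.61) or with the replicate block (0.61, limma, adjusted p = 0.0950). The numbers did not pair the mice, and 0 of the 6 numbers correlated best with their own partner. With 1 mouse left out, the log2 difference was 0.48 to 0.76 for Igfbp2, 0.17 to 0.42 for Igfbp4, 0.15 to 0.32 for Stat5b, -0.79 to -0.26 for Cish, -0.48 to -0.32 for Mup3 and -0.024 to 0.13 for Igf1. Transcripts called lower numbered 1 to 3 (3 without PZH mouse 2), and shares that differed 1 to 3, with 1 without any control mouse. With the median-ratio factor the pathway and marker genes called higher numbered 43, and over all genes 2807 were higher and 2739 lower. This factor also changed the sign of uncalled differences, for Igf1r (0.040), Onecut1 (0.10), Stat5a (0.068), Igf1-201 (0.067) and Igfbp4-204 (0.12). Leaving out 1 mouse changed the sign of Igf1r (-0.088 to 0.010), Onecut1 (-0.43 to 0.11), Ghr-203 (-1.30 to 0.11), Igf1-201 (-0.29 to 0.084), Igfbp2-202 (-1.20 to 0.14), Igfbp4-204 (-0.86 to 0.34) and Mup3-203 (-0.014 to 0.16). Of the single genes and transcripts named, 14 comparisons lost and 1 gained a call under the settings that keep all mice, and 566 kept direction and call. With 1 mouse left out, 39 lost and 4 gained a call, 21 changed sign and 956 kept both. Calls were lost for Mup10, Cyp4a12b, Hsd3b5, Cyp3a44, Hao2, Ppargc1a, Tox and Clec4f with mice left out, for Hnf4a, Cd68 and Pecam1 with the median-ratio factor and for Socs3 with the replicate block (limma, adjusted p = 0.0729). Calls were gained for Bcl6 with the block, Onecut1, Cish-201, Igf1-202 and Ghr-209 with a mouse left out. The causes were not tested. FPKM without counts limits what can be said of genes under 1 FPKM.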
